A study of Homo sapiens with 6 samples.

Results

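The regions described here are the 100 Kb bins of human chromosome 9 with a compartment score in all 6 libraries, which numbered 1094 of the 1413 bins of the chromosome and belong to 27898 scored bins among 30376 on 23 chromosomes. The chromosome was chosen by its measured values, the rise in the share of A bins from the hormone-starved cells to the tamoxifen-resistant cells. That rise and everything taken from the same contrast are therefore a description. T47D is an established line of estrogen receptor-positive breast cancer cells. Tethered conformation capture (TCC) was used to ask how chromatin is folded in it. TCC is a Hi-C method that joins crosslinked fragments while they are tethered to beads. Parental T47D cells were starved of hormone for 72 h and crosslinked without estradiol (T0) or 1, 4, 16 and 24 h after 100 nM β-estradiol (E2) was added (T1, T4, T16 and T24). The tamoxifen-resistant T47D line (TamR) carries the label untreated, while in the study's methods TamR cells grew in charcoal-stripped medium with tamoxifen. With 1 library for each condition, differences could not be set against replicates and no test was made. The resistant state, the line's culture history and the library cannot be told apart.

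A chromosome is folded so that stretches rich in active genes, compartment A, meet one another more often than they meet the gene-poor and mostly silent stretches of compartment B. Compartments are read from the first eigenvector of a contact matrix, whose sign parts the bins into both classes and whose size says how strongly a bin keeps to its own class. In estrogen receptor-positive breast cancer cells E2 drives growth through the receptor, and resistance to tamoxifen, which blocks the receptor, has been linked to changes in chromatin. In the values below a positive score is A and a negative score is B, and every score is given multiplied by 1000. Scores are scaled within a library, so their signs and ranks compare better between libraries than their sizes. Intervals are 95% Wilson intervals over bins, which are not independent of their neighbours, so the intervals are too narrow.

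The 4 promoter windows below come from blocks that were B in all 5 parental libraries and A in TamR. They are examples and do not describe all 32 gene starts in such bins. Each window is the 250 bases before a RefSeq start in hg19 coordinates, read in the direction of the gene, with CpG dinucleotides in capitals. PSAT1, TLE4 and GAS1 have windows with more CpG than the median promoter window given below, and MUSK has one with fewer.
PSAT1, chr9:80911791-80912040, plus strand: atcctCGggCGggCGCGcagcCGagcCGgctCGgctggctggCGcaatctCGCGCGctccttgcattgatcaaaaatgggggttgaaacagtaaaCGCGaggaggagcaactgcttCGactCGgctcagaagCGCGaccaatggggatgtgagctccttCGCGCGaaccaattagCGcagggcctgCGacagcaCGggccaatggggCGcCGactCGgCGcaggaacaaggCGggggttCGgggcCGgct
TLE4, chr9:82186630-82186879, plus strand: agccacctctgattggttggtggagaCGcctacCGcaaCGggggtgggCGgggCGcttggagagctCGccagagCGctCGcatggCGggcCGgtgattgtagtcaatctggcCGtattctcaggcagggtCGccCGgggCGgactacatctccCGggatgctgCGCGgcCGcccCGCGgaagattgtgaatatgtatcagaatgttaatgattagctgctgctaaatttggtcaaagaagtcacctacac
GAS1, chr9:89562422-89562671, minus strand: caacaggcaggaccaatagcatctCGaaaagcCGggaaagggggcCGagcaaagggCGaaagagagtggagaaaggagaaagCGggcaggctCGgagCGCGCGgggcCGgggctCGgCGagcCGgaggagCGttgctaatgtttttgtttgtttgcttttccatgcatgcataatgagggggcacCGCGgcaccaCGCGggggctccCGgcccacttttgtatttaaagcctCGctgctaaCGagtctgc
MUSK, chr9:113430821-113431070, plus strand: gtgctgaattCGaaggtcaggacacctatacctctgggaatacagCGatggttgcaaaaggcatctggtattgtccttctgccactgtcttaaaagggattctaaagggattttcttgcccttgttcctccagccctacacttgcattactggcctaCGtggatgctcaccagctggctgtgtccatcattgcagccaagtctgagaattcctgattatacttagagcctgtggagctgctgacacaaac
The PSAT1 window holds 30 CpG (65.6% GC), that of TLE4 20 (59.2% GC) and that of GAS1 21 (60% GC), against 3 for MUSK (48.4% GC). Of all promoter windows, 67.6% had fewer CpG than that of TLE4 and 69.8% fewer than that of GAS1. Over 35116 RefSeq promoter windows the median was 11 CpG and 58% GC. The windows of TLE1 and RFX3, from other switched blocks, held 33 and 24 CpG. ZNF462 and SVEP1 are named without a window.

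The blocks were also searched for the full estrogen response element written as GGTCANNNTGACC, which reads the same on both strands. Chromosome 9 held 101 matches, 8 of them in bins that were B in all 5 parental libraries and A in TamR. The 2 matches below lie in the blocks of TLE4 and PALM2AKAP2, and the capitals mark the element within 20 bases on each side (hg19, plus strand).
Match in the TLE4 block, chr9:81907311-81907323, intergenic: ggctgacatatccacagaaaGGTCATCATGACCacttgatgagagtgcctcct
Match in an intron of PALM2AKAP2, chr9:112499524-112499536: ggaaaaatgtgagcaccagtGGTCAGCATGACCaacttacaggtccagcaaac
The share of bins with a match was 6.4% among the bins that moved from B to A in TamR, 6.05% among those that were B in all 6 libraries, 10.2% among those that were A in all 6 and 7.17% over all scored bins of the series. The element occurred in 0.057% of all promoter windows and in none of the 6 windows read here. A match is a description of letters and not of receptor binding, and others lay in PUM3 and SLC24A2 introns, in a SPATA31D3 exon and in intergenic sequence. For each of the 2 matches printed, the 25 bases from the start of the element occurred once on the chromosome. Some other matches in the switched bins had 25 bases that occurred 3 times on it. The shares of bins with a match count such repeated sequence as well.

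Compartment A held 47.3% of the chromosome 9 bins in T0 (44.3 to 50.2%), 46.2% in T1, 47.3% in T4, 46.3% in T16, 42.1% in T24 and 56.8% in TamR (53.8 to 59.7%). TamR lay above all 5 parental libraries, 9.51 points above T0 and 9.41 points above the highest of them, while the parental libraries spanned 5.21 points with T24 at the low end. Over the other chromosomes the rise from T0 to TamR was 1.08 points. By rise the chromosome ranked 2 of 23, behind chromosome 19 (11.8 points) and ahead of chromosome 20 (8.71 points), and chromosome 5 stood at the other end with a change of -9.22 points. Chromosome 9 is less rich in genes than those above and below it in this order, since 38.4% of its bins held the start of a protein-coding gene, against 81.3% on chromosome 19, 46.4% on chromosome 20 and 37.9% over all scored bins.

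Most of the rise lay on the long arm. The arms were divided at the longest run of unknown bases of the reference, and the short arm (p) held 388 scored bins and the long arm (q) 706. The q arm went from 57.1% A in T0 to 69.5% in TamR, 12.5 points higher, and its parental values lay between 51.6 and 57.6%. The p arm had 29.4% A in T0 and 33.5% in TamR, 4.12 points higher. T0 was the highest parental library on this arm, so TamR lay above all 5, by less than the 4.38 points they spanned. The median difference in score from T0 to TamR was 0.49 on the q arm and -0.38 on the p arm, against -0.27 over all bins of the series.

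**Figure D1:**
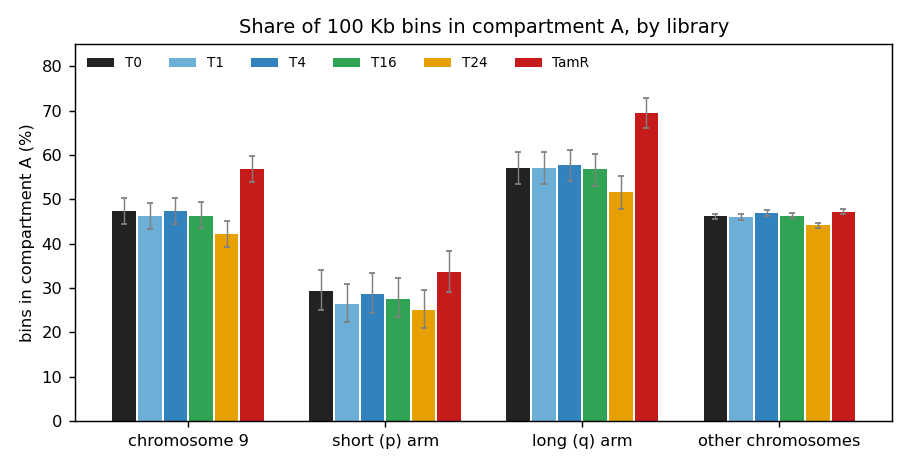
Share of 100 Kb bins in compartment A (%, y axis) in each of the 6 libraries, for chromosome 9, its arms and the other 22 chromosomes. Bars are single libraries and grey lines are 95% Wilson intervals over bins. On the q arm TamR (69.5%) stands above parental values of 51.6 to 57.6%. On the p arm TamR (33.5%) exceeds T0 (29.4%), the highest parental library, by less than the parental libraries span.

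From T0 to TamR, 174 of the 1094 bins changed compartment (15.9%, 13.9 to 18.2%), against 13.9% of all bins of the series. The chromosome thus changed about as many bins as the rest, and the direction was uneven. Of 577 bins in B at T0, 139 were A in TamR (24.1%, 20.8 to 27.7%), where the share over the series was 14.3%. Of 517 bins in A at T0, 35 were B in TamR (6.77%, 4.91 to 9.27%), where the share over the series was 13.6%. The arms differed in both directions. On the q arm 105 of 303 B bins became A (34.7%) and 17 of 403 A bins became B (4.22%), whereas on the p arm the counts were 34 of 274 (12.4%) and 18 of 114 (15.8%). A plain count of changed bins hides this, since the p arm changed 13.4% of its bins and the q arm 17.3%.

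Counting only bins whose compartment was the same throughout the 5 parental libraries and opposite in TamR leaves out those that crossed the border during the E2 course. Bins close to the border stay in, such as that of ABCA1 at -0.09 in T0. There were 125 such bins from B to A (11.4% of the chromosome, against 6.13% over the series) and 17 from A to B (1.55%, against 3.94%). Of the 139 changes from B to A, 14 thus fell on bins that also changed in the E2 course, as did 18 of the 35 changes from A to B. Since the chromosome was picked on this contrast, nothing is read from the distance to those backgrounds.

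The change did not need a bin to be near the border. Among bins with a T0 score below -5, 27 of 325 were on the other side in TamR (8.31%), against 5.08% of such bins elsewhere. Between -5 and -2 it was 53 of 149 (35.6% against 15.4%), and between -2 and 0 59 of 103 (57.3% against 32.5%). Of the 121 bins between 0 and 2 in T0, 28 were B in TamR (23.1%, against 45% of such bins on the other chromosomes), while the median difference of these bins was 0.69. None of the 292 bins above 5 changed. Counting only the order of the scores, TamR was above all 5 parental scores in 462 bins (42.2%, against 35% over the series) and below all 5 in 391 (35.7%, against 43.6%). With a margin of 2 score units the counts were 239 above (21.8%) and 40 below (3.66%), against 14.1% and 11.6% over the series.

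**Figure D2:**
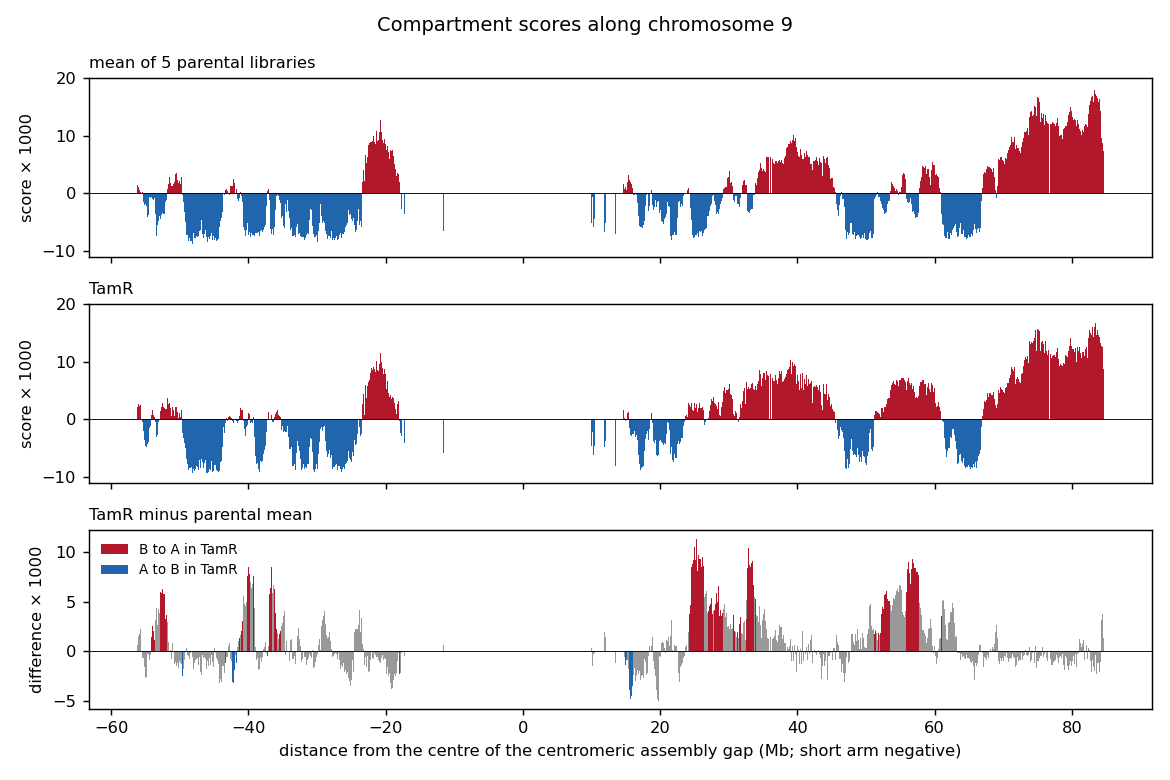
Compartment score × 1000 (y axis) of each scored bin along chromosome 9, as the mean of the 5 parental libraries (top), in TamR (middle) and as their difference (bottom), by distance in Mb from the centre of the centromeric assembly gap. Red is A and blue is B in the upper panels, and in the bottom panel colour marks the 125 bins that went from B to A and the 17 that went from A to B. The red bins gather in 2 stretches of the q arm and in smaller groups on the p arm.

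The 125 B to A bins formed 26 blocks of adjacent bins, 11 on the p arm and 15 on the q arm, and 10 of the blocks were single bins. The 8 longest held 92 of the 125 bins (73.6%). By position, 92 of the 125 bins also fell within 2 stretches of the q arm, which were drawn after the values were seen. In the first, chr9:80700001-90300000, the A share of 96 bins was 26% in T0, 26% in T1, 27.1% in T4 and T16, 18.8% in T24 and 90.6% in TamR. In the second, chr9:107600001-114100000, it was 40, 41.5, 41.5, 40 and 20% of 65 bins in the same order of parental libraries, and all 65 bins were A in TamR. TamR was above all 5 parental scores in 159 of the 161 bins of both stretches, and none of these bins went from A to B. With both stretches left out, the A share of the chromosome was 49.9% in T0 and 50.3% in TamR. The q arm without them had 64.6% and 62.2%. The 170 bins between the stretches had 68.2% in T0 and 66.5% in TamR. The bounds of both stretches were set by the B to A blocks, so that only 1 such bin of the q arm lay outside them. The flat shares outside the stretches thus follow in part from how the stretches were drawn.

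The longest block, chr9:80700001-82800000, had the lowest parental scores of the 8 longest blocks. Its 21 bins averaged -6.37 in T0, -6.56 in T1, -6.68 in T4, -6.64 in T16 and -6.48 in T24, and 2.12 in TamR. The 5 parental means differed by little beside the distance to TamR, and no bin overlapped, with parental scores from -8.29 to -0.93 and TamR scores from 1.28 to 3.48. In ranks over all bins of a library, the block moved from the 15.9 percentile in T0 to the 64 percentile in TamR. The block began beside the start of GNAQ, a G protein subunit, where the score was 1.33 in T0 and 2.56 in TamR. On the far side the next bin went from -6.49 to -0.87 and stayed B.

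There are 3 protein-coding genes that start in that block. PSAT1, an aminotransferase of serine synthesis, lay in a bin scored -4.43, -4.78, -4.13, -4.84 and -4.72 from T0 to T24 and 2.85 in TamR. TLE4, a transcriptional corepressor of the Groucho family, was at -6.35, -6.42, -6.46, -6.38 and -6.62 and then 2.79. CEP78, a centrosomal protein, lay near the edge of the block with parental scores of -2.12 to -2.99 and 2.10 in TamR. Gene bodies covered only 11% of the block, so most of the switched sequence was intergenic.

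Further blocks followed in the same stretch. At chr9:83400001-84100000, 7 bins without any protein-coding gene averaged between -2.75 and -1.70 in the parental libraries and 1.95 in TamR. At chr9:84300001-85500000, 12 bins averaged -2.25, -2.15, -2.19, -2.51 and -2.95 in the parental libraries and 2.15 in TamR. This second block begins at TLE1, the family member of TLE4, whose start bin was at -0.98, -1.27, -1.23, -1.60 and -1.15 and then 2.87. Of the 3 bins within the body of TLE1, 1 was A in T0 and 2 were A in TamR. The body bin next to the start bin stayed B, at -0.52 in T0 and -0.64 in TamR. The remaining starts in the block belong to SPATA31D4, SPATA31D3 and SPATA31D1, members of a spermatogenesis-associated family with near-identical copies. Reads may be shared between these copies.

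The GAS1 block, chr9:89000001-90000000, reached higher TamR scores than the ones before it. Its 10 bins averaged -2.99, -2.52, -2.33, -2.24 and -3.62 from T0 to T24 and 5.42 in TamR. GAS1, a growth arrest gene and co-receptor of hedgehog ligands, is the only protein-coding gene that starts in it, with -3.23, -2.67, -2.17, -2.63 and -3.58 in the parental libraries and 5.56 in TamR. The bins on both sides were also higher in TamR, at 6.59 against 1.36 in T0 and at 5.33 against -0.36. Next to it lies DAPK1, a kinase that promotes cell death, whose start bin hovered at the border in the parental libraries (0.04, -0.35, 0.29, -0.09 and -1.50) and stood at 5.16 in TamR. Farther along, CDK20, a cyclin-dependent kinase, went from 2.99 to 6.25 and CKS2, a small cyclin-dependent kinase subunit, from 6.24 to 8.47. Both were A throughout, so the higher TamR scores ran past the switched block into chromatin that was A before.

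In the second stretch the blocks were separated by bins that were near the border or in A in T0. ZNF462, a zinc finger gene, is the only gene that starts in chr9:108500001-109900000, where 14 bins averaged -2.37, -1.66, -1.91, -2.11 and -3.09 and then 2.47. Its own bin went from -1.21 in T0 and -2.37 in T24 to 3.73 in TamR. The neighbouring KLF4, a zinc finger factor of epithelial and stem cells, was A in all 6 libraries and went from 1.58 to 6.36. At chr9:112300001-112900000, 6 bins within PALM2AKAP2, which encodes a kinase-anchoring protein, averaged -1.63, -1.04, -0.94, -0.72 and -2.20 and then 6.21, the highest TamR mean of the 8 blocks. Gene bodies covered all of this block although no gene starts in it.

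The block at chr9:113000001-114100000 was the richest in genes. Its 11 bins averaged -3.51, -3.35, -3.17, -3.10 and -4.50 in the parental libraries and 4.66 in TamR. TXN, the redox protein thioredoxin, was at -1.61, -2.15, -1.49, -1.44 and -2.50 and then 6.43. SVEP1, a large matrix protein, was at -3.09, -2.59, -2.98, -2.57 and -3.89 and then 5.87. MUSK, the receptor tyrosine kinase of the neuromuscular junction, was at -3.31, -3.26, -2.71, -3.57 and -4.99 and then 4.82. TXNDC8 (5.24 in TamR), LPAR1, a receptor for lysophosphatidic acid (3.30), and the olfactory receptor gene OR2K2 (4.17) were likewise B in all 5 parental libraries. In all 6 of these start bins T24 was the lowest of the parental scores.

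The spread of scores along such stretches was lower in TamR in most of them and not in all. The same scores chose the bins of these stretches, and how far this choice shapes the spread was not tested. Over the 60 bins of chr9:108600001-114600000, chosen afterwards because TamR exceeded every parental score by more than 2 in each bin, T0 ran from -4.20 to 4.24 with an SD of 2.41 over bins, and TamR from 1.34 to 7.29 with an SD of 1.73. In T0 25 of the bins were A and in TamR all 60. A like stretch of 35 bins at chr9:80700001-84200000 ran from -7.72 to 0.11 in T0 (SD 2.55) and from -1.16 to 3.83 in TamR (SD 1.28). The SD in T0 and TamR was 1.55 and 1.32 at chr9:15500001-17400000 and 1.52 and 0.65 at chr9:19500001-20400000. It was 1.06 and 0.71 at chr9:84300001-85200000 and 3.06 and 1.47 at chr9:88900001-91100000. At chr9:2800001-4700000 it was 2.10 and 2.09 and at chr9:85300001-86200000 1.07 and 1.10. At chr9:118400001-119400000 it was 0.98 and 1.32, with all 10 bins B in both. No stretch of 9 or more bins with TamR below every parental score by this margin was found on the chromosome.

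**Figure D3:**
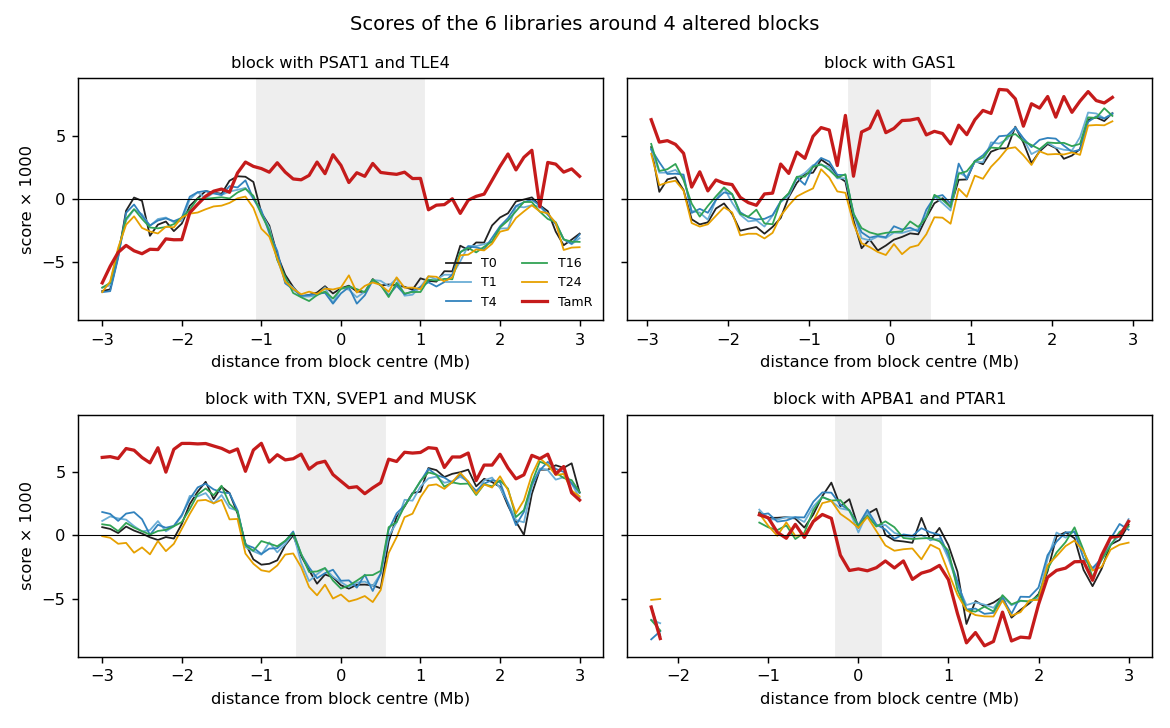
Score × 1000 (y axis) of the 6 libraries in bins up to 3 Mb on either side of the centre of 4 altered blocks, shaded grey, with breaks where bins have no score. In the 3 B to A blocks the TamR line (thick red) is above 0 inside the shaded block and the parental bins lie between -8.29 and -0.87, and in the block with APBA1 and PTAR1 TamR lies below 0 where the parental lines are positive.

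On the p arm the 32 switched bins were more scattered. The one long block, chr9:3500001-4600000, had 11 bins with means of -3.22, -2.82, -2.57, -2.83 and -3.09 in the parental libraries and 2.19 in TamR. GLIS3, a zinc finger factor of pancreas and thyroid, was at -1.62, -1.21, -1.13, -1.51 and -1.74 and then 1.85, and all 6 scored bins within its body were A in TamR and in no parental library. RFX3, a factor for cilia genes, starts at the block's edge with -3.35 in T0 and 1.36 in TamR, but only 1 of the 4 bins within its body was A. SLC1A1, a glutamate transporter, went from -2.00 in T0 (-0.33 to -1.13 in the E2 libraries) to 1.77.

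In the middle of the p arm, chr9:15100001-21100000, 17 of 60 bins switched from B to A and the A share went from 15% in T0 to 41.7% in TamR. The interval was drawn afterwards, from the first to the last B to A block of this region, so a rise was partly built in. SLC24A2, an ion exchanger, went from -7.06 to 0.74, and CNTLN, a centrosomal protein, from -7.14 to 0.39. BNC2, a zinc finger gene, went from -7.51 to -0.52 and stayed B at its start while 2 of 5 bins within its body were A. IFNB1, interferon beta, lay in a bin at -0.83, -1.63, -1.43, -1.70 and -2.28 that stood at 0.43 in TamR. In the switched bins of this region the TamR scores reached 1.68 at most. Not every bin was higher, since TamR was above all parental scores in 44 of the 60, and ADAMTSL1, a matrix gene, went from -7.89 to -9.14. In the 179 bins from chr9:21100001-44900000 the A share was 31.3% in T0 and 30.2% in TamR. These bins follow the last B to A block of the arm and so hold none by construction.

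**Figure D4:**
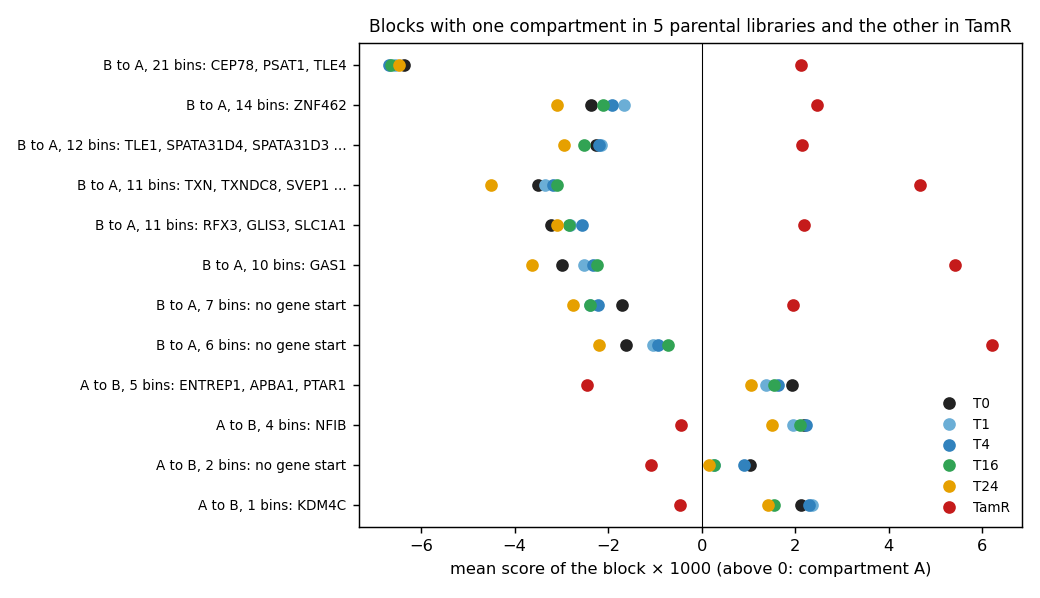
Mean score × 1000 (x axis) of the 8 longest B to A blocks and the 4 longest A to B blocks of chromosome 9 in each of the 6 libraries, labelled by genes that start in them. The 5 parental means lie together on one side of 0 and TamR lies on the other, from -6.37 to 2.12 for the 21-bin block with PSAT1 and TLE4 and from -1.63 to 6.21 for the 6-bin block without a gene start.

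The 17 bins that went from A to B made 9 blocks, 6 of them single bins. Of these bins 10 lay on the p arm and 7 on the q arm. When every bin that differed between T0 and TamR is counted, bins that also changed in the E2 course included, 14 of the 106 bins in chr9:66400001-80700000 went from A to B and none the other way, with the A share at 27.4, 26.4, 29.2, 23.6, 13.2 and 14.2% from T0 to TamR. The share of TamR was thus close to that of T24. This interval was drawn after the values were seen and ends where the first B to A block of the q arm begins. It could thus hold no bin that was B in all 5 parental libraries and A in TamR. The direction of its changes is therefore partly set by its bounds. The longest block, chr9:71900001-72400000, had 5 bins with means of 1.92, 1.38, 1.63, 1.55 and 1.06 in the parental libraries and -2.46 in TamR. APBA1, a neuronal adaptor protein, was at 1.71, 1.79, 2.02, 1.56 and 1.46 and then -2.80, and ENTREP1 and PTAR1 in the same block stood at -1.55 and -2.55 in TamR.

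On the p arm the block at chr9:14000001-14400000 covers NFIB, a transcription factor of the nuclear factor I family. Its 4 bins averaged 2.19, 1.94, 2.23, 2.09 and 1.51 and then -0.45, and all 4 bins within the gene body were A in every parental library and B in TamR. The TamR scores were close to the border, from -0.83 to -0.05, with -0.05 in the bin of the gene start. In ranks the block stood at the 49.9 percentile of TamR. The 2 bins at chr9:13000001-13200000, which hold no gene start, went from 1.04 in T0 and 0.15 in T24 to -1.08. KDM4C, a histone demethylase, starts in a single switched bin that was at 2.12, 2.35, 2.30, 1.54 and 1.41 and then -0.47. None of these 4 blocks was as deep in A before the change as the first block was in B.

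The sequence of the switched bins was that of B chromatin in gene number and between both classes in GC content, 2 features the choice did not use. The 125 B to A bins had a median GC content of 39.6% (quartiles 38.1 and 41%) and 2.56 protein-coding gene starts per Mb. Bins that were B in all 6 libraries had 37.7% (35.7 and 39.7%) and 2.6 starts per Mb, and bins that were A in all 6 had 44.8% (41.7 and 49.4%) and 12.7 starts per Mb. Among the switched bins 22.4% held a gene start, against 17.7% and 63.5%. The 17 A to B bins had 40% GC and 6.47 starts per Mb. The bin values of one block are not independent, so these medians describe the blocks and carry no test.

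During the E2 course the chromosome changed much less than between T0 and TamR. Of the 1094 bins, 458 stayed A and 555 stayed B at all 4 E2 time points, 9 went from A to B at all 4 and none from B to A. The other 72 were miscellaneous, differing from T0 at some time points (6.58%, against 5.7% over the series). Without the T24 library the share was 3.38%, and with the weakest bins left out it was 0%. Compared with T0, 3.11% of bins differed at T1 (3.16% over the series), 2.65% at T4 (3.05%), 3.66% at T16 (3.8%) and 5.48% at T24 (5.17%). From A to B and from B to A the counts were 23 and 11 at T1, 14 and 15 at T4, 25 and 15 at T16 and 58 and 2 at T24, the most one-sided of the 4.

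In A share T24 and TamR thus moved apart over the chromosome as a whole, but not in every part. In chr9:66400001-80700000 they had 13.2 and 14.2%, both below T0, and on the q arm without both stretches 61.1 and 62.2%. T24 had fewer A bins than T0 by 5.12 points, the second largest fall of the 23 chromosomes after chromosome 5 with 5.57, while TamR had more. Over all bins of the series T24 changed by -2.16 points from T0 and TamR by 1.41. In 27 bins T24 alone of the parental libraries was B, and 22 of these were A in TamR. Most bins in A near the border in T0 stayed A, since 28 of the 121 between 0 and 2 were B in TamR (23.1%). The count is therefore not read as a trait of the bins that were B at T24 alone. T24 was the lowest of the 5 parental scores in 81 of the 125 B to A bins (64.8%), against 34.6% of all bins of the chromosome. Among bins that were B in all 6 libraries, and so also B at T24, it was 68 of 430 (15.8%). How far the choice of bins shapes these shares was not tested. The longest run of miscellaneous bins lay within the second q arm stretch, at chr9:110500001-111500000, where 10 bins without a gene start averaged 0.17, 0.89, 1.18, 0.56 and -0.76 in the parental libraries and 6.28 in TamR. The other runs of 6 bins were at chr9:13200001-13800000 with MPDZ, a scaffold protein of cell junctions (0.57, 0.00, 0.39, 0.30 and -0.71, then 0.23), and at chr9:79800001-80400000 with GNA14, a G protein subunit (0.40, 0.31, 0.50, -0.11 and -0.76, then 0.09). All of these parental means lay between -0.76 and 1.18, so small shifts in a library set their calls. Whether T24 reflects the time after E2 or the single library was not tested.

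Of 799 protein-coding genes on the chromosome, 755 started in a scored bin. From T0 to TamR 42 starts went from B to A (5.56%, against 5.2% over the series) and 21 from A to B (2.78%, against 4.53%). Over all gene starts the share that became A was therefore close to that of the series. The bin share of 24.1% given above has another base, the bins in B at T0. Of the gene starts in B at T0, 42 became A and 115 stayed B. Restricted to bins of one compartment in all parental libraries, the counts were 32 and 11 genes. The genes are described below by the bin that holds their start, in 10 lists chosen with earlier results of these data known. No expression was measured in these libraries. The list counts stand beside the 5.56% and 2.78% of all starts and are not read as traits of a list.

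Transcription factors changed in both directions, with 6 of 27 from B to A and 3 from A to B. RFX3, GLIS3, TLE4, TLE1 and ZNF462 were B in all parental libraries and NFIB was A in all of them, with its start bin just below the border in TamR (-0.05). KLF9, a zinc finger factor, crossed the border within the E2 course, with 0.60, -0.26, 0.05, -0.46 and -1.08 and then -2.37. DMRT1 and DMRT3, neighbouring genes of gonad development, lay at the border in all 6 libraries, between -0.50 and 0.72, and their opposite calls rest on differences of that size. Of the other factors, PAX5, a B cell factor, went from 8.37 to 5.10 and NR5A1, an orphan nuclear receptor, from 8.41 to 6.10, both A throughout. Of 14 chromatin genes 2 went from A to B, KDM4C and SMC5, a subunit of a complex for chromosome maintenance, whose bin was at 1.39, 0.04, 0.57, -0.23 and -1.89 and then -2.98. TAF1L went from -6.46 to -1.36 and UHRF2, a ubiquitin ligase that reads DNA methylation, from 4.03 to 0.74 without a change of sign.

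Among 18 cell cycle and tumour suppressor genes GAS1 alone changed (5.56% from B to A, as among all gene starts of the chromosome). CDKN2A and CDKN2B, the inhibitors of cyclin D kinases, were B in all 6 libraries, CDKN2A at -3.48 in T0 and -2.23 in TamR and CDKN2B at -0.56 and -0.79. PTPRD, a receptor phosphatase, went from -7.59 to -9.13. Among 20 signalling genes MUSK and NTRK2, the receptor of brain-derived neurotrophic factor, went from B to A, NTRK2 with -1.86, -1.65, -1.11, -0.57 and -2.02 and then 0.62. MLLT3, GNA14 and GNAQ crossed the border in the E2 course and were A in T0 and TamR. TEK, the angiopoietin receptor, went from -5.67 to -1.73 and SHC3 from 3.41 to 6.83 within their compartments. JAK2 (3.17 and 2.87), ABL1 (12.79 and 11.06) and NOTCH1 (16.04 and 16.11) stayed in A.

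Of 26 metabolic genes PSAT1 and ABCA1, a cholesterol exporter, went from B to A, and ABCA1 moved only from -0.09 to 0.86. Of 16 matrix genes SVEP1 alone changed. PAPPA, a protease that cleaves insulin-like growth factor binding proteins, went from -6.28 to -1.46 and TNC, tenascin C, from -7.80 to -3.19, both still B. None of 13 immune genes changed, although TNFSF15 (-4.61 to -0.21) and TNFSF8 (-5.27 to -0.37), ligands of the tumour necrosis factor family, were just below the border in TamR. Of 18 neuronal and channel genes SLC1A1 and KCNV2, a potassium channel subunit (-1.23 to 0.36), went from B to A, while BRINP1 went from -4.21 to -8.48 within B and CACNA1B, a calcium channel subunit, from 9.01 to 12.86 within A.

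Gene clusters share bins, so their members count as a few regions. The 17 interferon genes lay in 6 bins, and 16 of them stayed in B while IFNB1 did not. The bins of the interferon alpha genes were at -2.23 to -4.75 in T0 and -1.04 to -2.13 in TamR. IFNK, interferon kappa, went from -5.23 to -1.08. Of 26 olfactory receptor genes in 11 bins, 8 went from B to A. OR2K2 belongs to the MUSK block, and OR1N2, OR1L8, OR1Q1, OR1B1, OR1L1, OR1L3 and OR1L4 share 2 bins at chr9:125300001-125500000. These bins averaged -1.24, -0.32, -0.78, -0.29 and 0.62 and then 1.96, so that T24 and TamR, and not TamR alone, were A. The cluster with OR13F1, OR13C8 and OR13D1 stayed in B, with scores from -6.97 to -7.90 in T0 and from -4.78 to -5.56 in TamR.

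**Figure D5:**
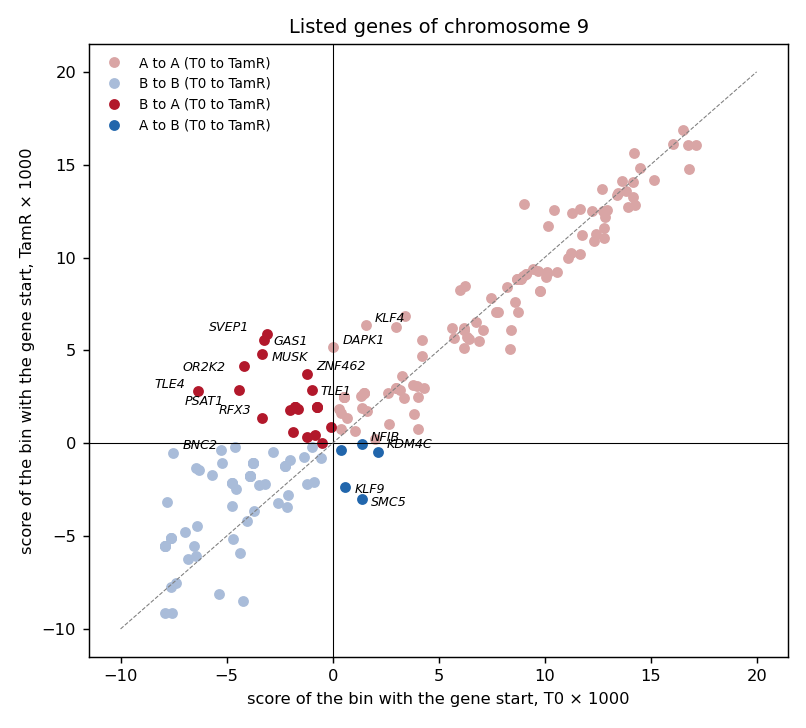
Score × 1000 of the bin with the gene start in T0 (x axis) and TamR (y axis) for the listed genes of chromosome 9, coloured by compartment in T0 and TamR, with a dashed line of equal scores. GAS1, SVEP1, MUSK, TLE4 and PSAT1 lie far above the line (TLE4 at -6.35 and 2.79), and most A genes follow the line. NFIB, KDM4C, KLF9 and SMC5 lie below it on the A to B side, NFIB at the border in TamR (-0.05).

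The number of compartments, counted as runs of adjacent scored bins of one sign, was 76 in T0, 71 in T1, 63 in T4, 64 in T16, 50 in T24 and 60 in TamR, so that TamR lay within the parental range. The median A compartment was 350 Kb in T0 and 600 Kb in TamR, with 300 to 800 Kb in the E2 libraries. Pearson correlations of scores over the 1094 bins, which share genome position and scaling, were 0.990 to 0.997 for the 10 parental pairs and 0.899 to 0.916 for the 5 pairs with TamR.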

How the data were processed

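TCC was measured in 6 T47D libraries, 1 per condition. The authors deposited a score track per library, which gives the leading HiCLib eigenvector of the contact matrix in 100 Kb bins (hg19). Per the study's methods, reads were aligned iteratively with bowtie2, sparse bins were removed, the matrix was corrected iteratively and contacts within chromosomes were left out. The squared scores of a library sum to 0.998 to 0.999, a 0 marks a bin without a value, and no contact counts are given, so the depth is unknown. Pooling of T47D cultures is not given in the sources used here.

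The compartment was the sign of the score as deposited. Blocks are runs of adjacent scored bins with one sign in the 5 parental libraries and the other in TamR. GC content and gene starts came from GRCh37 and GENCODE 44, and the 23 chromosome lengths match the bins. Promoter windows came from RefSeq (GRCh38.p14 table) and were placed on GRCh37 by exact match. Members, gene lists and blocks were chosen with earlier results of these data known. Named are the 8 longest B to A and 4 longest A to B blocks with at most 6 genes each, the listed genes whose compartment changed with up to 4 others per list by the size of the difference, and the 3 longest miscellaneous runs. JAK2, NOTCH1, CDKN2A, CDKN2B, SLC24A2, CNTLN, OR13D1 and ADAMTSL1 were named after their values were seen. Runs and trends were tested on simulated tracks. Python 3.11.15, numpy 2.4.6 and pandas 2.3.3 were used. 1 element match is not reported here.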

Additional observations from a re-analysis of the deposited data

How the results depend on the processing

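No paired analysis was possible because there was a single library for every condition. The rise in A share, 9.51 points, was between 8.61 and 12.2 points under 5 other treatments of the bins and borders. The highest was with scores adjusted for GC content. With both q arm stretches left out, an alternative chosen after seeing the data, the rise was 0.322 points. That alternative removes most of the B to A bins by construction. When the weakest bins were dropped (absolute score below the 10th percentile in at least 1 library), 848 of 1094 bins remained, of which 9.32% changed from T0 to TamR, 16.9% of the B bins became A, 0.754% of the A bins became B and 0% were miscellaneous. That filter removes bins near the border by construction. With T24 as the reference in place of T0, 28.1% of B bins became A and 3.9% of A bins became B, and in 500 Kb bins 4.85% of A bins became B. The miscellaneous share was 3.38 to 6.4% with 1 E2 time point left out, the lowest without T24. The median difference from T0 to TamR, 0.14 in score units, was 0.87 in rank percentiles and 0.02 in library SDs, on other scales and in the same direction. The number of blocks was 35, and 35 to 49 with unscored bins bridged, another border or T0 alone as the parental library. Without T24, chosen after seeing the data, it was 40, with 126 B to A and 22 A to B bins. No contact counts were given, so the precision of single scores near 0 is unknown.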
